A study of Mus musculus with 12 samples.

Results

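Gene expression was compared between 3 iPS cell clones labelled Aid-/- (981E1, 981E4 and 981E5) and 3 clones labelled Aid+/+ (967B2, 967B4 and 967B6), which are 6 of the 12 clones of the series and were taken by the start of their names, with no measured value used in the choice. Induced pluripotent stem (iPS) cells are somatic cells brought back to a pluripotent state, here mouse embryonic fibroblasts (MEFs) that took up retroviruses for Klf4, Sox2 and Oct3/4, in some experiments together with c-Myc, and each clone was expanded from 1 colony. All 6 clones carried the Nanog-GFP reporter, were labelled male and of a mixed C57BL6, DBA and 129S4 background, and were sampled at passage 6 on gelatin in medium with LIF and puromycin, and total RNA of each clone was read on 1 one-colour Agilent array. The other 6 clones, 979F1, 979F2 and 979F3 (labelled Aid-/-) and 979B1, 979B3 and 979B4 (labelled Aid+/+), formed a second pair of series that shares no clone with the first. They are always called 979F and 979B, and Aid-/- and Aid+/+ without a further name stand for the 3 clones of either label in the first pair. In the Aid-/- clones Aid was disrupted through the germ line of mice that had been crossed with the reporter strain, so it was missing before and throughout reprogramming and not in the iPS cells alone. The cells had been passaged on feeder fibroblasts before gelatin. The study's table of experiments does not list the number that 981E1, 981E4 and 981E5 carry, so where these clones came from is uncertain. The 3 arrays of the Aid+/+ clones 967B2, 967B4 and 967B6 lay on slide 1 and those of 981E1, 981E4 and 981E5 on slide 3, so that genotype, clone series and slide cannot be told apart in this comparison. The 979F arrays lay on slide 2 and the 979B arrays on slide 3, so the same limit holds for the second pair.

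Aid is a deaminase that converts cytosine to uracil in DNA and is known for class switching and somatic hypermutation of antibody genes in B cells. Because deamination of methylated cytosine followed by base excision repair could remove methyl groups from DNA, Aid has been discussed as a factor that clears methylation when somatic cells return to pluripotency. iPS cells silence the programme of the cell they came from and express the transcription factors of embryonic stem cells, and clones of one genotype can differ in residual fibroblast transcripts, imprinted genes and cyclic states.

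All 55681 non-control probes were tested. Levels are given as the log2 signal of a probe relative to the 75th percentile of its array, so that 0 is the signal at that percentile, and a difference of 1 is 2-fold. On the 6 arrays, 31679 to 33648 probes were well above background by the scanner software, and 29196 were so on all 6. The signal at the 75th percentile was 426.2 to 501.3 intensity units. The median difference over all probes was 0.0, and the median standard error (SE) was 0.22. In each series 1 clone stood apart: 967B4 differed by over 2-fold from the mean of 967B2 and 967B6 in 9.33% of the 29196 probes and 981E5 from that of 981E1 and 981E4 in 4.07%, against 1.23% to 2.64% in the other 4 clones. Over the 928 detected probes of chromosome 8 genes, the median difference of 981E5 from the Aid+/+ mean was 0.36, against -0.05 in 981E1 and -0.08 in 981E4. Replicates are separate clones, and p-values measure the spread between these clones. All tests were two-sided.

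The cells of both series had the transcripts of pluripotent cells. All 10 pluripotency markers (Pou5f1, Sox2, Nanog, Zfp42, Esrrb, Dppa5a, Utf1, Tdgf1, Lin28a and Sall4) were above background on all 6 arrays. Of their 14 probes none differed at an unadjusted p under 0.05, and the median difference was -0.14. Nanog, a core factor of the pluripotent state, was at -0.89, 0.19 and -1.1 in Aid+/+ and at -1.03, -0.64 and -0.08 in Aid-/-, and the series overlapped, with a difference of 0.01 (SE 0.41). Pou5f1, which encodes Oct3/4, had a difference of -0.21 (SE 0.21), Dppa5a of -0.02 (SE 0.19) and Khdc3 of -0.06 (SE 0.2). Eras, a Ras-like gene of ES cells, was at 2.04, 2.74 and 2.16 in Aid+/+ and at 1.57, 1.87 and 0.77 in Aid-/-. The Eras levels of the series did not overlap, and the difference of -0.91 (SE 0.34) had an adjusted p of 0.605 from limma. Of the B cell markers, 5 of 6 genes, among them Pax5, were not above background on any of the 6 arrays. The 7 probes of Gapdh, the reference gene, were all lower in Aid-/-, with differences of -0.08 to -0.42. The probe with the largest, A_55_P1994258 (SE 0.16, unadjusted p = 0.0395 from limma), did not overlap between the series. In 979F against 979B the Gapdh differences were -0.14 to -0.61.

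Few probes passed the test over all probes. With the 6 arrays, 4 probes (0.00718% of those tested) were higher in Aid-/- and 1 (0.0018%) was lower at an adjusted p under 0.05 and over 2-fold. Of all probes, 2004 (3.6%) were higher and 2409 (4.33%) lower when the unadjusted p was under 0.05, and 2606 differed by over 2-fold. The levels of the series did not overlap in 2970 probes (5.33%) that were higher in Aid-/- and in 5288 (9.5%) that were lower. When the spread was estimated from all 12 arrays with a mean for each series, 46 probes (0.0826%) were higher and 36 (0.0647%) lower, and these 82 included the 5 called with 6 arrays. The plot of the difference against the level shows that the 5 probes do not have unusually high signals, and that most probes over 2-fold apart passed neither fit.

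**Figure D1:**
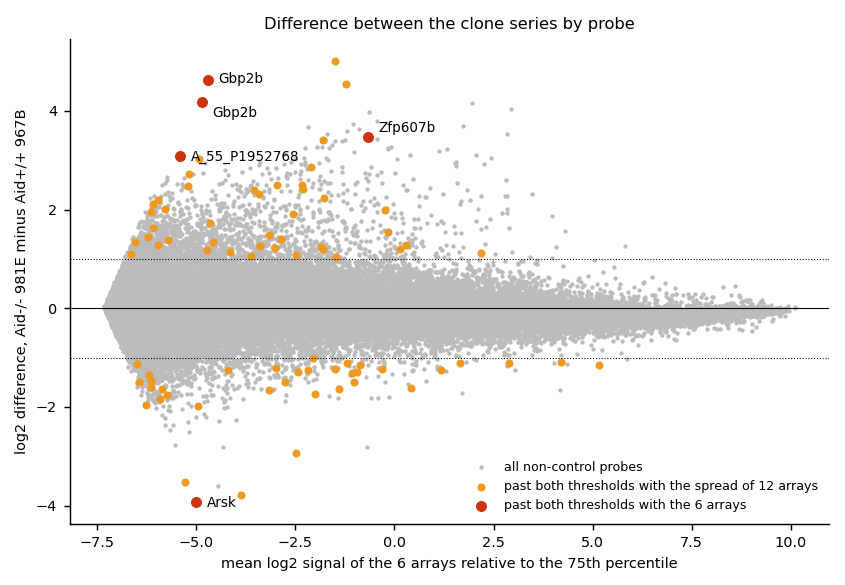
Log2 difference between the means of the Aid-/- clones (981E1, 981E4, 981E5) and the Aid+/+ clones (967B2, 967B4, 967B6) (y axis) against the mean log2 signal of the 6 arrays relative to the 75th percentile (x axis), 1 point per non-control probe. Red points passed both thresholds with 6 arrays (4 higher, 1 lower), orange points only with the spread of 12 arrays, and dotted lines mark 2-fold; the probes far from 0 crowd at low signal, where the differences spread most.

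Gbp2b had the largest called difference. It encodes a guanylate-binding protein, a GTPase that interferon induces and that acts against pathogens inside cells. The probe A_55_P2097219 was at -6.76, -7.17 and -7.16 in 967B2, 967B4 and 967B6, not well above background on any of them, and at -2.36, -2.36 and -2.46 in 981E1, 981E4 and 981E5, above background on all 3. The series were far apart, and the Aid-/- clones lay within 0.1 of each other. Taking the lowest signal that counted as above background in place of the dim arrays, Gbp2b was at least 6.97-fold higher in Aid-/- (means -2.39 ± 0.05 and -7.03 ± 0.24, SD, n = 3; adjusted p = 0.00494 from limma). A second Gbp2b probe, A_51_P398766, was at -6.66, -7.1 and -7.07 in Aid+/+ and at -2.5, -2.59 and -3.23 in Aid-/-, at least 5.36-fold higher (adjusted p = 0.02). In the other pair of series both probes stayed at the level of 967B2, 967B4 and 967B6, with means of -7.08 in 979F and -7.05 in 979B for A_55_P2097219. Gbp2b signal this high was therefore found in 981E1, 981E4 and 981E5 and in none of the other 9 clones. With normexp background correction, which compresses low signals, the differences were 1.21 (adjusted p = 0.0217) and 1.07 (adjusted p = 0.0547).

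Gbp2b lies in a row of guanylate-binding protein genes on chromosome 3, and the promoters of this row are shown because the genes are known to respond together to interferon. In the RefSeq promoters of GRCm38.p6, from 250 bases before to 50 bases after each start, the motif TTTCNNTTTC was searched on both strands (its reverse complement is GAAANNGAAA), with overlapping matches counted. It is a core of the element bound by interferon response factors, and 1131 of 32851 promoters (3.44%) hold it. Each window below has the match, in capitals, with up to 20 bases on either side, on the plus strand, which is the strand of all 5 genes.
Gbp2b, chr3:142594690-142594739, 137 bases before the start: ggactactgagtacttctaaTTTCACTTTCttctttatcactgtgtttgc
Gbp2, chr3:142620584-142620633, 59 bases before: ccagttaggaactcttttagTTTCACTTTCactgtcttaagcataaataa
Gbp3, chr3:142559979-142560034, 45 bases before, with 2 overlapping matches: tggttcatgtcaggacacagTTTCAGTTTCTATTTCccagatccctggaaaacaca
Gbp5, chr3:142496749-142496798, 165 bases before: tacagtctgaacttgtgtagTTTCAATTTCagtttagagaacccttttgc
Gbp7, chr3:142530263-142530312, 53 bases before: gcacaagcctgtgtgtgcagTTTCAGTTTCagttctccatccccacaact
All 5 genes have a match, and a second promoter of Gbp3 in the table has none. A match describes the letters of the window and not a site of binding.

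The genes that share this motif did not share the difference. Gbp2, the neighbour on one side, was at 0.38, -1.59 and 0.31 in Aid+/+ and at 0.1, 0.07 and 0.19 in Aid-/-, so the series overlapped (difference 0.42, SE 0.53). Gbp3, the neighbour on the other side, differed by 0.29 (SE 0.59), Gbp5 by 0.24 (SE 0.44) and Gbp7 by -0.05 (SE 0.82). Gbp5 and Gbp7 were both near background. In the row on chromosome 5, Gbp4 was at -1.52, -4.8 and -1.58 in Aid+/+ and at -1.87, -2.43 and -2.74 in Aid-/-, and the low value was that of 967B4. Gbp6 (A_55_P2052380, 0.7, SE 0.21), Gbp9 (0.63) and Gbp10 (-0.29) were not called either. The levels of this Gbp6 probe did not overlap between the series (unadjusted p = 0.0133 from limma), and another Gbp6 probe was at background. The interferon response list had 39 probes, for 32 of its 34 genes. Of these probes 4 were higher and 3 were lower by the unadjusted p (under 0.05), with a median difference of 0.03. The higher ones were B2m (1.09), Ifit3 (2.11) and both probes of Apol9a (0.57 and 2.28), and the lower ones Psmb9 (-0.51) and both probes of Ddx58 (-0.71 and -0.7), none of them at an adjusted p under 0.05. Ifit3, an antiviral effector, was at -4.61, -7.43 and -7.42 in Aid+/+ and at -5.04, -3.41 and -4.68 in Aid-/-, and 967B2 lay inside the range of the Aid-/- clones. Without 967B4 the interferon list had 1 probe higher and 6 lower.

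Zfp607b, a zinc finger gene on chromosome 7, was the called gene with signal on every array. Its probe A_55_P1974612 was at -2.65, -2.04 and -2.53 in Aid+/+ and at 1.18, 0.91 and 1.08 in Aid-/-. All Aid-/- clones lay well above all Aid+/+ clones, an 11.0-fold difference on the linear scale (log2 3.46, SE 0.21, adjusted p = 0.02 from limma). In the other pair it was at -2.16, -1.91 and -2.03 in the 979B clones and at -0.2, 0.1 and -0.39 in the 979F clones. There too the clones labelled as disrupted were higher without overlap, by 1.87 (SE 0.18, adjusted p = 0.00356 in the 12-array fit), and the 979F clones lay between the 979B clones and 981E1, 981E4 and 981E5. The difference between the 2 pairs, 1.59 (SE 0.26), had an adjusted p of 0.0723. On slide 3, which also held the 979B clones, the difference from 979B was 3.09.

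Ttc9b, a tetratricopeptide repeat gene, lies on the same stretch of chromosome 7, with 1 protein-coding gene between it and Zfp607b in the RefSeq order of GRCm38.p6. It was at -3.44, -3.55 and -3.68 in Aid+/+ and at -2.22, -1.87 and -2.39 in Aid-/-. The series did not overlap, and the difference was 1.4 (SE 0.19), with an adjusted p of 0.215 from limma with 6 arrays and 0.0192 with the spread of 12. In the other pair Ttc9b differed by 1.22 (SE 0.18, adjusted p = 0.0228). Among the other genes around Zfp607b, 3 probes of the zinc finger gene Zfp59 differed by 0.48 to 0.57, the zinc finger genes Zfp60 (0.03), Zfp607a (-0.06) and Zfp974 (-0.02) differed little, and the 3 probes of the kinase gene Akt2 differed by 0.12 to 0.25. The 100 bases before the starts of Ttc9b and of the genes called with 6 arrays, Zfp607b, Arsk and Gbp2b, are shown for their density of CpG. This is the dinucleotide that DNA methylation marks, and it is in capitals.
Zfp607b, chr7:27674561-27674660, plus strand: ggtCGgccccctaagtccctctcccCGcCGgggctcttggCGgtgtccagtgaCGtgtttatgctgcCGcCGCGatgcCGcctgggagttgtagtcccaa
Ttc9b, chr7:27653824-27653923, plus strand: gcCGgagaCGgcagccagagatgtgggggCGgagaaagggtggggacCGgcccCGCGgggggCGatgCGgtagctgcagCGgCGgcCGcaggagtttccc
Arsk, chr13:76098661-76098760, minus strand: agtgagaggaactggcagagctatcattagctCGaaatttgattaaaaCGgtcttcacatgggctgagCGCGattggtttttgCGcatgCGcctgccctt
Gbp2b, chr3:142594747-142594846, plus strand: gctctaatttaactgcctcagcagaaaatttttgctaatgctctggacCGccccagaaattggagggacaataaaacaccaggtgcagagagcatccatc
In the whole promoter of 300 bases, Zfp607b had 31 CpG, Ttc9b 21, Arsk 13 and Gbp2b 1, against a median of 7 over all 32851 promoters. The called genes were therefore found on both sides of the median, and methylation of these promoters was not analysed here.

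**Figure D2:**
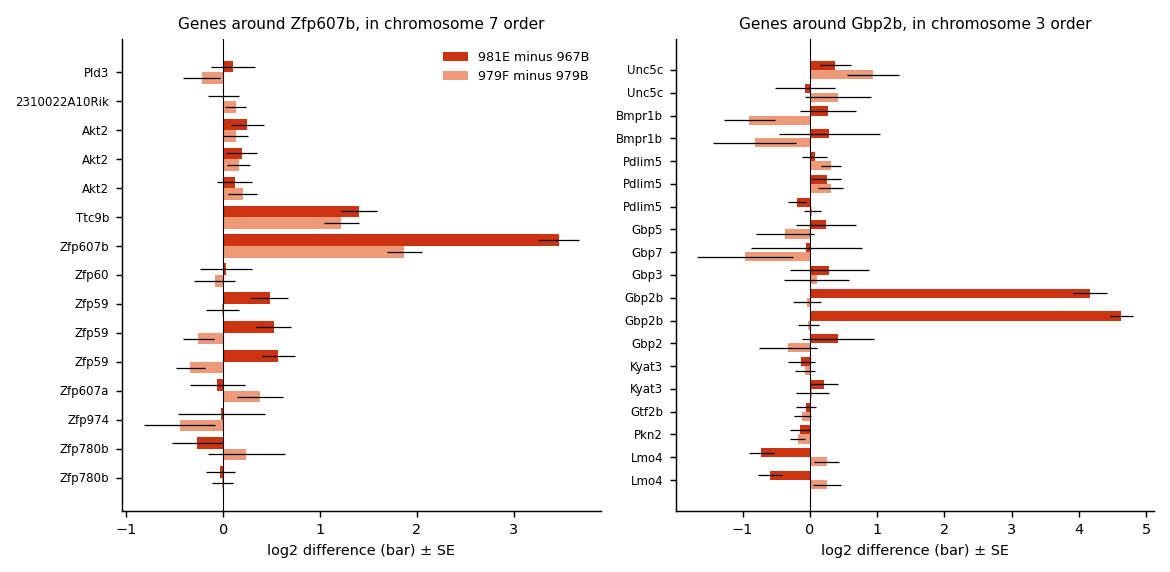
Log2 difference ± SE (x axis) of each probe of the genes around Zfp607b on chromosome 7 (left) and around Gbp2b on chromosome 3 (right), in the order of the genes, for 981E1, 981E4 and 981E5 minus 967B2, 967B4 and 967B6 (dark bars) and 979F minus 979B (light bars). Zfp607b and Ttc9b were higher in both pairs (3.46 and 1.87, 1.4 and 1.22), whereas Gbp2b was higher only in the first (4.63 and -0.02), and most other genes lay near 0.

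Arsk was the only probe called lower. It encodes arylsulfatase K, a lysosomal enzyme that removes sulfate from glycosaminoglycans. The probe A_51_P472531 was at -3.27, -2.84 and -3.05 in Aid+/+ and at -6.8, -7.18 and -6.94 in Aid-/-, where it was not above background on any array. The Aid-/- clones were at least 4.91-fold lower (means -6.97 ± 0.19 and -3.06 ± 0.21, SD, n = 3; adjusted p = 0.0113 from limma). The 979F and 979B clones were at -3.34 and -3.31 on average, close to 967B2, 967B4 and 967B6, so only 981E1, 981E4 and 981E5 were at background. A second Arsk probe, A_52_P475080, was at -1.52, -1.52 and -1.81 in Aid+/+ and at -1.25, -1.61 and -1.67 in Aid-/-, and the series overlapped (difference 0.11, SE 0.19). The 2 probes of the gene therefore disagree. Ttc37, next to Arsk on chromosome 13, differed by -0.1 (SE 0.16). With normexp background correction the difference of the first probe was -0.89 (adjusted p = 0.117).

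The remaining called probe, A_55_P1952768, has no gene name in the tables used here. It was at -6.69, -7.08 and -7.08 in Aid+/+ and at -3.7, -3.99 and -3.9 in Aid-/-, at least 2.52-fold higher (adjusted p = 0.02 from limma; log2 difference 0.59 with normexp). It was above background in all Aid-/- clones and in no Aid+/+ clone. In the other pair the difference was 1.01.

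These 5 calls rest on small spreads among 3 clones a side. Leaving out 1 clone at a time kept the difference of the Gbp2b probe A_55_P2097219 between 4.56 and 4.77 and gave adjusted p-values from limma of 0.0259 without 967B2, 0.0391 without 967B4, 0.0818 without 967B6, 0.107 without 981E1, 0.108 without 981E4 and 0.0751 without 981E5. For Zfp607b the difference stayed between 3.34 and 3.65, with an adjusted p of 0.0391 without 967B4 and of 0.198 to 0.266 without any other clone. For Arsk it stayed between -3.81 and -4.03, with 0.0391 without 967B4 and 0.117 to 0.171 otherwise. For A_55_P1952768 it stayed between 3.01 and 3.22, with 0.0653 to 0.266. For the second Gbp2b probe it stayed between 4.04 and 4.4, with 0.072 to 0.24.

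**Figure D3:**
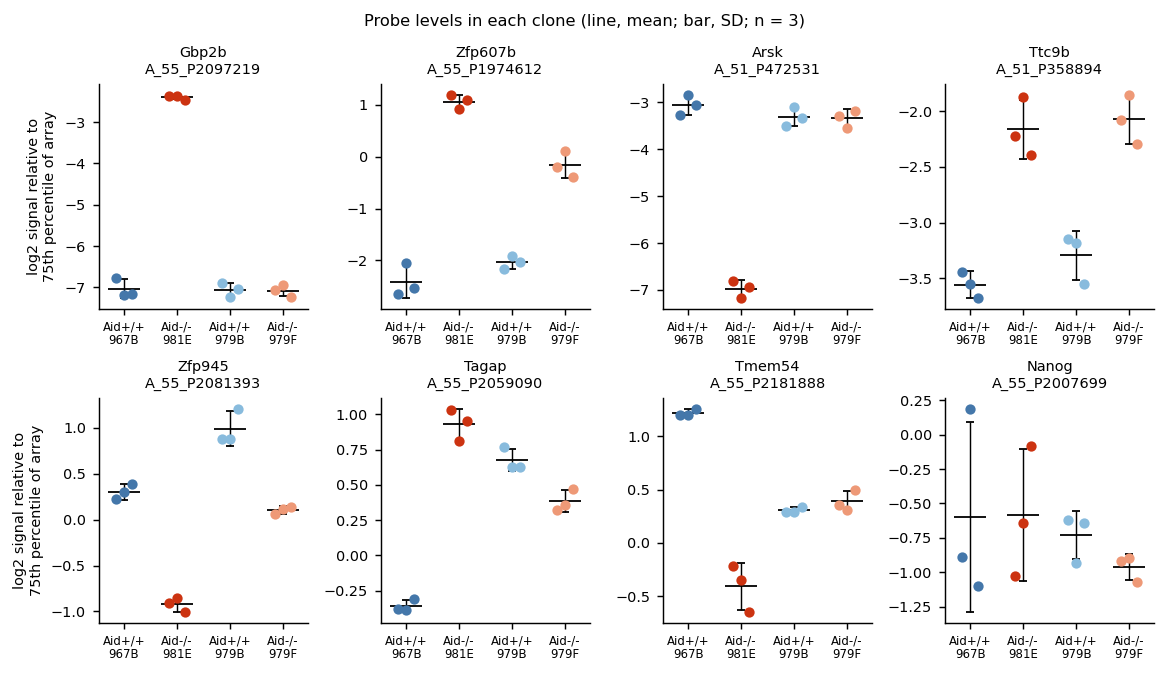
Levels of 8 probes (y axes, log2 signal relative to the 75th percentile of the array, each with its own range) in the 3 clones of each series, with the mean (line) and SD (bar). Gbp2b was high and Arsk low in 981E1, 981E4 and 981E5 and not in the other 9 clones, Zfp607b and Ttc9b were higher and Zfp945 lower in both disrupted series than in their counterparts, Tagap and Tmem54 differed in the first pair and little in the second, and Nanog overlapped.

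Because fewer than 12 genes a direction passed both thresholds with signal on all 6 arrays, further genes are described that reached an unadjusted p under 0.001 with over 2-fold, signal on all 6 arrays and no overlap of the series. Of 27229 gene probes, this rule holds only 12 that were higher and 14 that were lower. Apart from Zfp607b, their adjusted p-values from limma were 0.162 to 0.313. Fndc1, a gene with fibronectin type III domains, was at -3.22, -3.94 and -3.64 in Aid+/+ and at -1.19, -0.72 and -1.35 in Aid-/-. Its difference was 2.51 (SE 0.26). Col4a2, a chain of the basement membrane collagen, was at -1.63, -2.36 and -2.11 in Aid+/+ and at -0.2, -0.76 and -0.21 in Aid-/-, a difference of 1.65 (SE 0.26). Its partner chain Col4a1, chosen after its value was seen, differed by 1.58 (SE 0.34). Kctd11, an adaptor of ubiquitin ligases, differed by 1.99 (SE 0.33), Stk3, a kinase of the Hippo pathway, by 1.54 (SE 0.2), and Syt10, a calcium sensor of vesicle release, by 1.63 (SE 0.18). The predicted gene Gm10046 (2.23, SE 0.38), Tmem267 (1.25), Phlda1 (1.13) and Rint1, which acts in vesicle transport (1.05), complete the list with Ttc9b and Tagap.

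Tagap encodes a GTPase-activating protein known from T cells and lies directly beside Fndc1 on chromosome 17, with no protein-coding gene between them. Tagap was at -0.38, -0.39 and -0.31 in Aid+/+ and at 1.03, 0.81 and 0.95 in Aid-/-, and its difference was 1.29 (SE 0.15). The clones of a series lay close together and the series far apart, as the rule that picked Tagap favours. In the other pair neither gene was higher, with -0.29 for Tagap and -0.32 for Fndc1.

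The lower genes had small spreads as well, which follows from how they were picked. Tmem54, a membrane protein gene, was at 1.2, 1.2 and 1.26 in Aid+/+ and at -0.22, -0.35 and -0.65 in Aid-/-, a difference of -1.63 (SE 0.17). Tal1, a transcription factor of blood formation, was at -2.74, -2.01 and -2.29 in Aid+/+ and at -3.86, -4.35 and -3.79 in Aid-/-, a difference of -1.65 (SE 0.26). Slc23a1, a transporter of vitamin C, was at -1.19, -1.12 and -1.07 in Aid+/+ and at -2.3, -2.9 and -3.4 in Aid-/-. Its difference was -1.74 (SE 0.29), the largest under this rule. Npw, which encodes neuropeptide W, differed by -1.63 (SE 0.21), Chst5, a carbohydrate sulfotransferase, by -1.49 (SE 0.16), Arl4d, a small GTPase, by -1.31 (SE 0.22), and Upk2, a protein of the bladder lining, by -1.29 (SE 0.19). Zfp945, a zinc finger gene on chromosome 17, was at 0.22, 0.3 and 0.39 in Aid+/+ and at -0.91, -0.85 and -1.01 in Aid-/-, a difference of -1.23 (SE 0.14). The others were Krtap12-1, a keratin-associated protein of hair (-1.54), Dnajb8, a chaperone (-1.23), Tmc7 (-1.15), Smpdl3b, a phosphodiesterase (-1.14), Rasl11b, a Ras-like gene (-1.11), and Trappc5, a subunit of a vesicle tethering complex (-1.01).

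Some probes had signal in all clones of one series and in none of the other. Of the 55681 probes, 106 were above background on the 3 arrays of Aid-/- and on none of Aid+/+, and 84 the other way round. Of genes with the strongest signal in the higher series, Gbp2b came first among those detected in Aid-/-. It was followed by Glipr1, Islr, Scgb1b29, a secretoglobin of secretions, Edil3, an integrin ligand of the matrix, and Mal, a membrane protein of lymphocytes and myelin. Their mean levels were at least 4.4-fold (Glipr1, adjusted p = 0.317 from limma), 3.36-fold (Islr, 0.396), 3.44-fold (Scgb1b29, 0.255), 3.07-fold (Edil3, 0.384) and 2.4-fold higher (Mal, 0.665). For Mal the highest level was that of 981E5, at -2.18, while 981E1 (-4.45) and 981E4 (-4.31) lay close to 967B2 (-4.49). Scgb1b29 was at -6.73, -5.42 and -7.15 in Aid+/+ and at -3.43, -3.57 and -3.24 in Aid-/-, and in the other pair 979F was above 979B by 2.03 (adjusted p = 0.0513 in the 12-array fit).

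Above background in Aid+/+ and not in Aid-/- were Arsk, Rassf9, Dab1, an adaptor of reelin signalling, Bmp3, a ligand of the TGF-beta family, Tbx20, a transcription factor of the heart, and S100z, a calcium-binding protein. S100z was at -4.0, -2.69 and -3.85 in Aid+/+ and at -6.98, -7.17 and -6.95 in Aid-/-, at least 3.57-fold lower (adjusted p = 0.162 from limma with 6 arrays and 0.00452 with the spread of 12). All Aid+/+ clones lay above all Aid-/- clones. Rassf9 was at least 5.19-fold lower (adjusted p = 0.475), Bmp3 4.15-fold (0.31), Dab1 3.35-fold (0.604) and Tbx20 3.3-fold (0.49). For Dab1 and Tbx20 the highest level was that of 967B4, at -1.75 and -2.39, against -3.72 to -4.14 in the other Aid+/+ clones.

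The arrays also carried probes for lincRNA regions, long intergenic stretches of transcription. Under the same rule at an unadjusted p under 0.001, 6 of 16194 lincRNA probes were higher and 10 were lower. The largest higher difference was that of a plus-strand region at chr5:139225387-139230837 (mm9), with -3.62, -4.05 and -4.01 in Aid+/+ and -2.63, -2.22 and -2.4 in Aid-/- (difference 1.48, SE 0.2, adjusted p = 0.215 from limma). The strongest signal among the named ones was that of a plus-strand region at chr1:162965309-162970704 (mm9), with 1.75, 1.69 and 1.93 in Aid+/+ and 0.34, 0.63 and 0.64 in Aid-/- (difference -1.26, SE 0.17, adjusted p = 0.215). In neither region did the series overlap, which the rule requires. The largest lower difference was that of a plus-strand region at chr5:122047900-122065325 (-1.63, SE 0.21). The other named regions differed by 1.05 to 1.24 (chr5:33174092-33200792, chr12:52880692-52933444, chr4:35106125-35127700 and chr9:13281056-13281599) and by -1.32 to -1.5 (chr8:60132300-60146830, chr4:124127144-124334840 and chr1:77819988-77820546).

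The 82 probes called with the spread of 12 arrays were then read in the other pair of series, 979F and 979B, which has the same labelled genotypes and no clone in common. As in the first pair, each label there had its own slide. Of these 82 probes, 44 belong to named genes and 16 to lincRNA regions, and 44 were above background on all 6 arrays of the first pair. The sign was the same in 979F against 979B for 51 of the 82 (62.2%), against 52.8% of all probes. At an adjusted p under 0.05, 8 of the 82 differed in the same direction there and none in the opposite. Over all probes, 979F against 979B had 95 higher (0.171%) and 141 lower (0.253%) past both thresholds. The 8 included Zfp607b, Ttc9b and an unnamed probe (A_52_P154741, named Lgals6 by the study), which were higher, and Zfp945, Npw and Gsx2, which were lower. Gsx2, a homeobox gene of the forebrain, was not above background on any of the 6 arrays. The unnamed probe was at -4.11, -3.07 and -3.45 in Aid+/+ and at -1.6, -0.4 and -0.05 in Aid-/-, and its difference was 2.86 here and 3.06 in the other pair. Zfp945 differed by -1.23 and -0.88, and Npw by -1.63 and -0.95. The shared direction of these 8 follows from how they were picked, and both comparisons took their spread from the same 12 arrays.

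**Figure D4:**
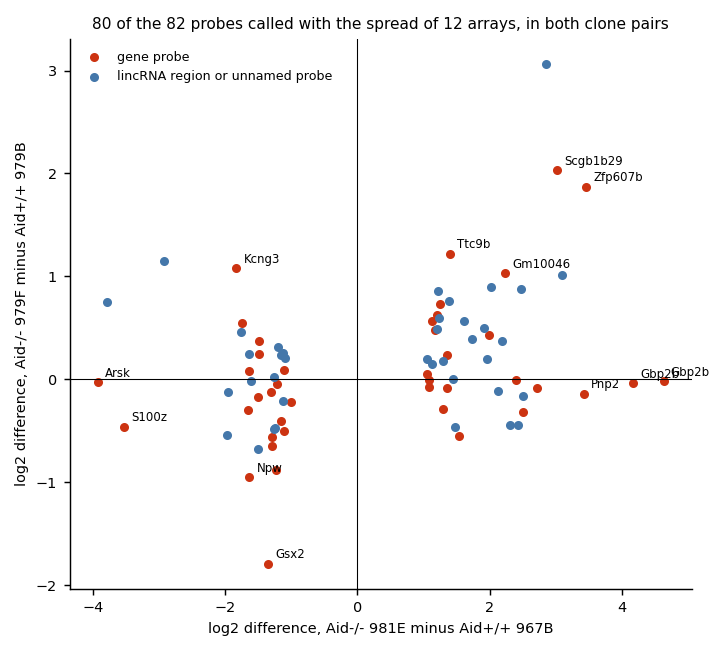
Log2 difference of 979F minus 979B (y axis) against that of 981E1, 981E4 and 981E5 minus 967B2, 967B4 and 967B6 (x axis) for 80 of the 82 probes called in the latter with the spread of 12 arrays (the other 2 are not shown), with gene probes in red and lincRNA or unnamed probes in blue. Scgb1b29, Zfp607b and Ttc9b lie in the upper right, Gsx2 and Npw in the lower left, and Gbp2b, Arsk and S100z lie near 0 on the y axis.

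Several of the 44 gene probes lay on the same chromosomes. Chromosome 7 had 7, 6 of them higher in Aid-/-, out of 2390 gene probes there (0.293%, against 0.162% of all gene probes), and 6 of the 7 had the same sign in 979F against 979B. They were Zfp607b, Ttc9b, Gm10046, Scgb1b29, Dmpk, a muscle kinase, and Il11, a cytokine, among the higher ones, and Tmc7 as the lower one. Zfp607b and Scgb1b29 have 151 protein-coding genes between them. Chromosome 17 had 7 of 1277 (0.548%), 5 of them lower, and 4 of the 7 had the same sign in the other pair. Chromosome 13 had 3 of 1014 (0.296%), a share like that of chromosome 7. Chromosome 11 had 5 of 2137 (0.234%) and chromosome 4 had 4 of 1748 (0.229%). Of the lower genes of chromosome 17, Zfp945, Bicdl2, Npw and Decr2, a peroxisomal reductase, lie in this order with 11, 49 and 72 protein-coding genes between neighbours, and were lower in both pairs (-1.23, -1.29, -1.63 and -1.11 here, -0.88, -0.56, -0.95 and -0.5 in the other pair). The fifth, Kcng3, a potassium channel subunit near background, differed by -1.83 here and by 1.08 in the other pair.

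The pairs also differed. The difference of the genotype effect between the pairs was at an adjusted p under 0.05 in 59 probes (0.106%). Among probes of named genes the smallest p were those of Gbp2b and Arsk, which were level in 979F and 979B. For other genes 967B2, 967B4 and 967B6 stood apart from the remaining 9 clones. Gm3219 was at -4.57, -5.06 and -4.56 in Aid+/+ and at -2.39, -2.5 and -2.12 in Aid-/-, a difference of 2.4, while 979F and 979B lay at -1.36 to -1.66. Against 979B, 981E1, 981E4 and 981E5 differed by -0.87. Tagap was of this kind too, with 979B at 0.63 to 0.77. Tmem54 was at 0.29 to 0.5 in 979F and 979B, between Aid+/+ (1.2 to 1.26) and Aid-/- (-0.65 to -0.22). On slide 3, the Aid-/- clones against 979B gave 761 probes higher (1.37%) and 424 lower (0.761%), a comparison that shares the Aid-/- clones with the main one. Side by side, Gbp2b (A_55_P2097219) differed by 4.63 from the Aid+/+ clones 967B2, 967B4 and 967B6 and by 4.66 from 979B, Zfp607b by 3.46 and 3.09, Arsk by -3.92 and -3.66, Fndc1 by 2.51 and 1.17, Tagap by 1.29 and 0.25, and Tmem54 by -1.63 and -0.71.

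Gene groups were read from 21 lists, and no probe of any list passed both thresholds with 6 arrays. The median difference and the counts at an unadjusted p under 0.05 (3.6% higher and 4.33% lower over all probes) are given for the groups. Leaving out clones also changed the counts over all probes, which were 2004 higher and 2409 lower with 6 arrays. They were 2396 and 3015 without 967B4, and 2269 and 2755 without 967B4 and 981E5. Fibroblast genes, which mark the cells of origin and the feeder cells, were the group with the most members on one side, with 9 of 31 probes higher, none lower and a median of 1.54. The higher ones were Cd44, Postn, Prrx1, Col6a1, Col6a2, Col5a2, both probes of Loxl1, and Fn1. Postn, a matrix protein, was at -4.26, -7.01 and -5.75 in Aid+/+ and at -4.07, -2.78 and -3.3 in Aid-/-, and 967B2 came close to 981E1. Col1a2, a chain of type I collagen, was at 2.16, -3.79 and 0.75 in Aid+/+ and at 2.88, 3.5 and 2.45 in Aid-/- (difference 3.23, SE 1.45). Of the 10 defining fibroblast markers, 5 were above background on all 6 arrays, and Lum was at background in all. Their summed linear signal, in units of the 75th percentile, was 1.89 to 16.5 in Aid+/+ and 15.9 to 30.3 in Aid-/-. In bulk samples fewer cells of a type and less RNA per cell cannot be told apart. The clone 967B4 was lowest, with a median of -3.18 from the other 5 clones over the list, and without it the median difference was 0.75, with 11 probes higher and none lower. In 979F against 979B the median of the list was 1.21. The part of fibroblast transcripts in the differences of matrix genes such as Fndc1, Col4a2, Islr and Edil3 was not tested.

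Of 23 probes of endoderm genes 6 were higher and none lower, with a median of 0.51. The higher ones were Gata6 (1.31) and Sox17 (1.52 and 1.64), transcription factors of the primitive endoderm, Hnf4a (1.75), and the basement membrane chains Col4a1 and Col4a2. Sox17 (A_55_P2157023) was at -5.48, -5.49 and -4.66 in Aid+/+ and at -2.73, -4.93 and -3.05 in Aid-/-, so 981E1 and 981E5 were high and 981E4 lay within Aid+/+. Without 967B4, 4 probes were higher and the median was 0.23. The median in 979F against 979B was 0.16.

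Epiblast and neural genes lay on the other side. Of 26 probes none was higher and 3 were lower, with a median of -0.52. The lower ones were Sox3 (-1.53) and Pax6 (A_55_P2022946, -0.88), transcription factors of the early nervous system, and a second probe of Pax6 that was not above background on any of the 6 arrays. Sox3 was at 1.57, 0.36 and 1.37 in Aid+/+ and at 0.37, 0.03 and -1.7 in Aid-/-. The lowest value was that of 981E5, and 967B4 and 981E1 were level. Without 967B4, 8 probes were lower and the median was -0.55, and in 979F against 979B the median was 0.09. Fgf5, a growth factor of the primed epiblast, was at 1.35, -1.02 and 1.12 in Aid+/+ and at 0.15, -1.88 and -2.27 in Aid-/- (difference -1.82, SE 0.85). The series overlapped.

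The genes of DNA methylation and its removal are the group that the genotype bears on by its known role. Of 26 probes of Dnmt, Tet, Uhrf and methyl-binding genes, 2 were higher and none lower, with a median of -0.13, and without 967B4 2 were higher and 3 lower. One of the higher probes was that of Mbd1 (A_55_P1971124), which encodes a protein that binds methylated DNA, at 0.44, -0.09 and 0.41 in Aid+/+ and at 0.94, 0.72 and 1.15 in Aid-/- (difference 0.68, SE 0.22). Another Mbd1 probe, A_55_P2111649, differed by 0.12 (SE 0.16), and its series overlapped. The 3 probes of Dnmt3b, a de novo methyltransferase, differed by -1.02 to -1.13, and A_55_P2008874 was at 5.31, 3.99 and 5.44 in Aid+/+ and at 4.62, 3.7 and 3.03 in Aid-/-, with 967B4 inside the range of the Aid-/- clones (unadjusted p = 0.0757 from limma). Over 16 probes of deaminases, glycosylases and Gadd45 genes the median was -0.06 and none was lower, Gadd45b was among the higher ones (0.6), and Apobec3 had the lowest difference, -0.48. Of 49 probes of imprinted genes, 1 was higher and 5 lower, with a median of 0.01. The lower ones were Mest (-0.89), Cdkn1c (-0.72), Phlda2 (-0.79), Mkrn3 (-0.48) and Gnas (A_55_P2081323, -0.64). A stronger Gnas probe, A_55_P2081313, differed by -0.08 (SE 0.19), and a further one near background by 0.44 (SE 0.65). The higher one was Dlk1 (A_55_P2105371, 2.72), at -0.21, -4.67 and -1.14 in Aid+/+ and at 0.55, 1.2 and 0.4 in Aid-/-. The low clone was again 967B4, and without it 2 probes were higher and 11 lower, with a median of -0.29.

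Genes of the 2-cell state, which ES and iPS cells enter from time to time, show how far a median can rest on 1 clone. Over 18 probes the median difference was 1.52, but no probe passed an unadjusted p of 0.05 in either direction, and without 967B4 the median was -0.1. Zscan4c (A_55_P2019533) was at 2.58, -7.26 and 2.19 in Aid+/+ and at 0.54, 2.32 and 2.49 in Aid-/-. The other 2 clones of Aid+/+ lay within or just above the range of the Aid-/- clones, and 967B4 was at background.

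In cholesterol synthesis, 4 of 29 probes were lower and none higher, with a median of -0.38 and 13 probes whose series did not overlap (9.5% of all probes were lower without overlap). Those lower included Hmgcs1, the synthase of an early step (-0.61), Idi1 (-0.59) and Hsd17b7 (-0.49). Hmgcs1 was at 5.73, 6.27 and 5.77 in Aid+/+ and at 5.45, 5.36 and 5.11 in Aid-/-, and the SE of its difference was 0.21 (adjusted p = 0.575 from limma). All Aid+/+ clones were above all Aid-/- clones. Without 967B4 and 981E5, the cholesterol list had 1 probe lower and none higher, with a median of -0.16. Among p53 targets, 3 of 26 probes were higher, both of the cell cycle inhibitor Cdkn1a (0.63 and 1.01) and Sesn2 (0.49), and Sesn1 was lower (-0.59), with a median of 0.23. Without 967B4 and 981E5, none of the p53 probes was higher and 1 was lower, with a median of 0.26. Of 25 probes of immediate early and ERK feedback genes, Phlda1 (1.13), Fosl1 (1.9), Dusp5 (0.95) and Jun (0.7) were higher and Etv4 (-0.9) was lower, with a median of 0.07. Without 967B4, 7 of these were higher and 1 lower. The pluripotency list had 43 probes, of which Klf2 was higher (0.84, SE 0.19) and Eras lower, with a median of -0.1, and without 967B4 3 were higher and 4 lower. Klf2 is a transcription factor of the naive state, and was at 5.04, 5.29 and 5.04 in Aid+/+ and at 5.92, 5.75 and 6.23 in Aid-/-, without overlap (adjusted p = 0.43). The plot of the lists by clone shows the share of single clones in these medians.

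The other lists had at most 3 probes higher and at most 5 lower. They were trophectoderm (2 higher and none lower of 15, median 0.25), mesoderm and primitive streak (none of 26, -0.26), germline (1 and 1 of 27, 0.39), glycolysis and hypoxia (1 and 1 of 47, -0.1), amino acid and ER stress (2 and 2 of 27, -0.03), Hox (3 and 5 of 43, 0.19), LIF and Stat3 targets (1 and none of 25, -0.14), Wnt targets (none of 25, -0.08) and Y-linked genes (none of 9, -0.32). In the germline list the lower probe was that of Tdrd1, a gene of the piRNA pathway, which was not above background on any of the 6 arrays. The highest was Tdrd7 (0.97). In the glycolysis list 10 of 47 probes were lower without overlap and none higher (9.5% of all probes were lower without overlap). In the Hox list the probes of Hoxc9, among the higher ones, and of Hoxc10, among the lower ones, were also not above background on any array. Without 967B4 the germline median was 0.0, 6 glycolysis probes were higher and none lower (median 0.08), 5 Hox probes were higher and 3 lower, 3 probes of LIF and Stat3 targets were higher and none lower (median 0.05), 2 of the mesoderm list were lower and 1 higher, and none of the amino acid and ER stress list was higher and 2 lower.

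**Figure D5:**
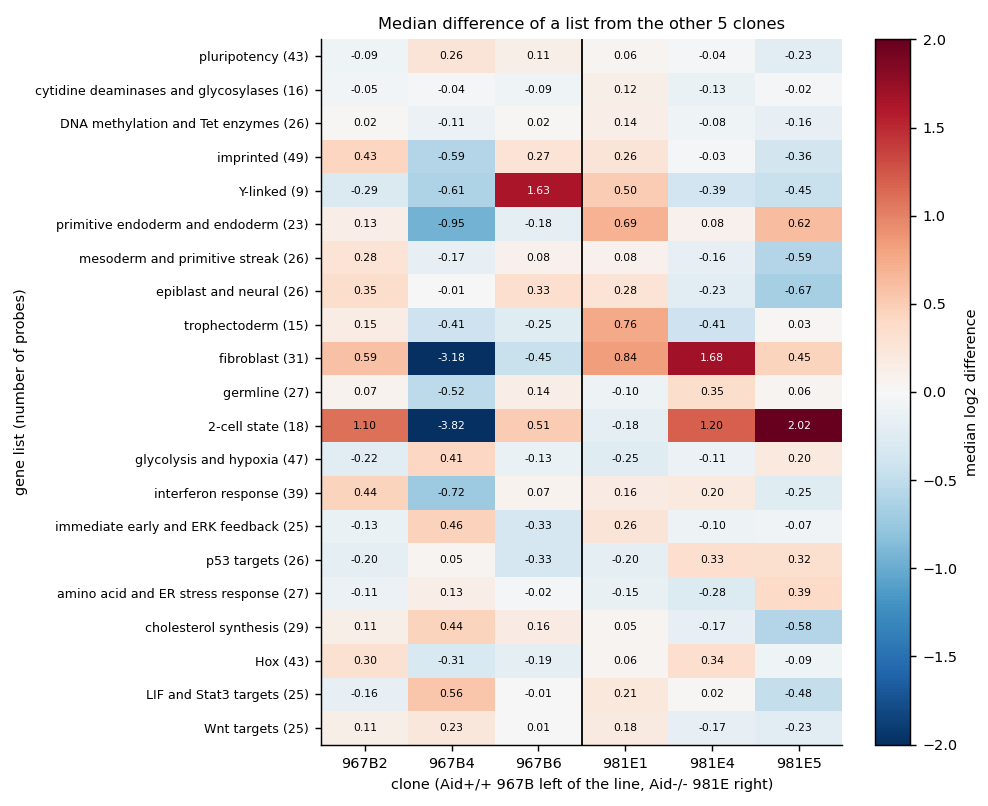
Median, over the probes of each of 21 gene lists (rows, with the number of probes), of the log2 difference of 1 clone from the mean of the other 5 (columns), with the Aid+/+ clones left of the line and the Aid-/- clones right; the colour scale ends at 2 in either direction. The clone 967B4 is far below the rest for fibroblast (-3.18) and 2-cell genes (-3.82), and 981E5 is lowest for epiblast and neural (-0.67) and cholesterol genes (-0.58).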

How the data were processed

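Total RNA of each clone was labelled with Cy3 and hybridised to 1 array. The authors scanned the arrays with Feature Extraction 10.7.3.1 and deposited spot tables (array design on mm9). From these, the deposited processed intensity of each spot was taken, in which background and spatial trend are already corrected by the scanner software and arrays are not yet normalized to each other. The authors also deposited log2 values with a 75% normalization in GeneSpring GX, which served as an alternative. Control spots and outlier spots were left out, spots of a probe were averaged, log2 was taken and the 75th percentile of each array subtracted. Low-signal probes keep a large spread on this scale.

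Groups came from the sample titles. The 2 series were compared in limma 3.58.1 (R 4.3.3; lmFit, eBayes, no covariate, prior degrees of freedom 2.37) with Benjamini-Hochberg adjustment over 55681 probes. A call needed an adjusted p under 0.05 and over 2-fold. A fit of all 12 arrays with a mean per series gave the other contrasts. Lower bounds of fold use, for a dim array, the higher of its own signal and the lowest signal above background. Symbols came from RefSeq accessions (GRCm38.p6), matched for 27229 of 28685 probes. Named genes were the RT-PCR markers of the study, the 12 largest differences a direction (at an unadjusted p under 0.001, since fewer passed the adjusted one), 6 on-off genes a direction, 5 lincRNA probes a direction, genes called in both pairs, the 5 smallest p of the difference between pairs and list members with their extremes, and neighbours of called genes; further genes of the lists at an unadjusted p under 0.05 were named after their values were seen. Some genes that the rule names are not reported here. The members and lists were chosen with earlier results of these data known. The scripts were tested on simulated data. Plots and tables used Python 3.11.15 with pandas 2.3.3, numpy 2.4.6 and matplotlib 3.10.9. The alternatives were other scalings, normexp background correction (offset 50), the deposited values, a filter on dim probes, an intensity trend, array weights, the methods' t-test, no chromosome 8 probes, other thresholds, and leaving out clones. Precision is limited by the number of arrays, 3 a series.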

Additional observations from a re-analysis of the deposited data

Results flagged for a closer look

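For 5 genes the difference between Aid-/- and Aid+/+ was not the difference between 979F and 979B, by a test of the difference itself in the 12-array fit of limma. They are the 5 genes with the smallest p. The difference of differences was 4.66 (SE 0.21, adjusted p = 3.51e-05) for Gbp2b (A_55_P2097219), -3.88 (SE 0.24, adjusted p = 0.000218) for Arsk (A_51_P472531), 1.59 (SE 0.15, adjusted p = 0.00653) for Tagap (A_55_P2059090), -1.71 (SE 0.18, adjusted p = 0.00993) for Tmem54 (A_55_P2181888) and 2.41 (SE 0.25, adjusted p = 0.00993) for Gm3219 (A_55_P2061076). For all 5 the clones labelled Aid-/- and Aid+/+ of the second pair differed by -0.29 to 0.08. Groups of 3 clones were not tested for outlying samples.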

How the results depend on the processing

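No paired analysis was possible because the Aid-/- and Aid+/+ clones share only the clone number 4, which names a colony. With 6 arrays, 4 probes were called higher and 1 lower. The counts were 46 and 36 with all 12 arrays, 2 and 2 with quantile normalization, 8 and 3 with normexp background (2 and 0 of them among the 5), and 0 and 0 with the methods' t-test, where 1473 and 3015 probes had an unadjusted p under 0.05. At an adjusted p under 0.01 they were 1 and 0. Without 981E5 and 967B4 they were 0 and 0, with 2269 and 2755 at an unadjusted p under 0.05. Leaving out 1 clone gave 0 to 3 higher and 0 to 2 lower: 3 and 2 without 967B4, 1 and 0 without 967B2, and none without 967B6, 981E1, 981E4 or 981E5, where 1513 to 1939 were higher and 1540 to 1882 lower at an unadjusted p under 0.05. The number of probes differing between the pairs was 59, and 109 when only probes above background in a series were tested. With only its 6 arrays, the comparison of the Aid-/- clones with 979B gave 422 higher and 268 lower. Of 65 named probes, 0 reversed under 17 alternatives; a sign change of a probe at an unadjusted p of 0.05 or more in both fits was not counted. The cause of these changes was not tested. Probes near background carry only bounds.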
